A study of Rattus norvegicus and Bos taurus with 12 samples.

Results

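G protein-coupled receptor genes were followed in both deposited tables, that of calf cardiac fibroblasts (Cfib) and that of adult rat ventricular myocytes (ARVM). The members were taken by gene symbol alone, from a set of symbol stems that covers numbered orphan receptors (GPR, GPRC), adhesion receptors and the receptors for catecholamines, acetylcholine, serotonin, dopamine, histamine, adenosine, nucleotides, vasoactive peptides, prostanoids, lysophospholipids, chemokines, complement and proteases. This gave 84 distinct symbols of 7989, with 75 of the 7052 genes listed for ARVM, 18 of the 2115 listed for Cfib and 9 listed for both. Not every symbol that the stems catch is a classical receptor. Of the matches, 9 in ARVM and 2 in Cfib are partner proteins or membrane proteins of other kinds (for example Ramp1, Ramp3, Agtrap, Ptgfrn and Gpr107), and they were kept and described apart.

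Cfib came from the right ventricular free wall of neonatal calves, were used at low passage and had been held in serum-free medium. Control (CO) calves stood at ambient Denver altitude, while calves with pulmonary hypertension (PH) had been kept at reduced atmospheric pressure. ARVM of Sprague Dawley rats were either freshly isolated or had been in conditioned medium of PH Cfib (PH-CM) for 7 days. Each of the 4 groups had 3 libraries, which are named here as in the labels (con4, con5 and con6 for freshly isolated ARVM, ha2, ha209 and ha211 for PH-CM ARVM) or by number for Cfib, and values of a gene in several libraries are given in that order. The Cfib libraries of a group came from different animals. For ARVM nothing in the labels says whether each library is a separate animal or culture, so there errors and p-values measure the spread between libraries, which may be technical. For every library the labels' treatment field names the serum of low- or high-altitude cows, and the group names used here follow the study. ARVM cultured without PH-CM were not analysed here, so PH-CM and time in culture cannot be told apart.

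G protein-coupled receptors cross the plasma membrane with a bundle of helices and pass a ligand signal to heterotrimeric G proteins inside the cell. Receptors coupled to Gs raise cyclic AMP, those coupled to Gi lower it, those coupled to Gq release calcium, and those coupled to G12 and G13 act on the actin cytoskeleton. In the heart, noradrenaline, acetylcholine, adenosine, angiotensin II, endothelin and apelin act on rate, force and growth through such receptors, which also sit on the fibroblasts, endothelial cells and macrophages of the tissue.

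Both tables hold only genes that the authors had selected for a difference between the groups, so a member that is not listed is not thereby unchanged. The ARVM values are read counts per gene divided by a library factor, with 12122463 to 18842171 count units on listed genes in a library. They are not scaled by gene length, so levels of different genes were not ranked, and a ratio of 2 genes is read only for its change between groups. The most frequent number of units above 0 was 5, so that a unit is not 1 sequenced fragment and the counting error of low genes is larger than their units imply. A floor of 15 units over the 3 libraries of a group was used, which is 3 fragments of 5 units, and it equals a mean of 5.92 normalized counts in freshly isolated ARVM and 4.09 in PH-CM ARVM. For Cfib the deposited numbers are a signal already divided by gene length and library size, with unknown depth. Replicates correlated at 0.974 to 0.978 in freshly isolated ARVM, 0.983 to 0.989 in PH-CM ARVM, 0.976 to 0.993 in CO Cfib and 0.997 to 0.998 in PH Cfib. Members varied more between libraries than listed genes in general, with a median coefficient of variation of 23.2% against 9.74% in freshly isolated ARVM, 18.8% against 10.1% in PH-CM ARVM, 22.3% against 13.7% in CO Cfib and 6.48% against 5.01% in PH Cfib. Low values raise this coefficient, and members were not matched to other genes by level. The difference is therefore not read as a trait of receptors.

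The first comparison asked how receptor genes of ARVM in PH-CM differed from those of freshly isolated ARVM. All 75 listed members passed limma at an adjusted p under 0.05 (Benjamini-Hochberg over all listed genes), 51 of them higher and 24 lower in PH-CM ARVM. Of all listed genes, 97.6% passed, 53.9% higher and 43.7% lower, so that passing the test does not set the members apart. Because the authors had selected the genes on the same contrast, adjusted p-values in both comparisons do not bound the share of false calls. In every member the groups did not overlap, which held for 100% of listed genes as well. An exact permutation test of 3 against 3 libraries cannot go below p = 0.1 for a single gene.

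Sizes rather than calls are therefore described. Log2 fold changes are differences of log2(value + 1), PH-CM minus freshly isolated, and they ran from -4.93 for Aplnr to 6.46 for Avpr1a. The median member stood 1.37 higher, against 0.37 for all listed genes. A change of at least 1 was reached by 42 members upward and 15 downward, or 76% of members against 48.5% of listed genes. These rises include 18 members at or under the floor in freshly isolated ARVM, all of which rose by more than 1. A gene that low in the controls is listed mainly when it is high in PH-CM ARVM. The share of such genes among all listed genes was not computed, so the comparison with listed genes is not read as a trait of receptors. Receptor genes took 0.109 to 0.113% of the units on listed genes in freshly isolated libraries and 0.192 to 0.206% in PH-CM libraries. The total of listed genes was lower in PH-CM libraries (13752013 to 14253656 normalized counts, against 18518235 to 19184739), which raises this share. The members themselves summed to 20146 to 21770 normalized counts and then to 26427 to 29317.

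**Figure D1:**
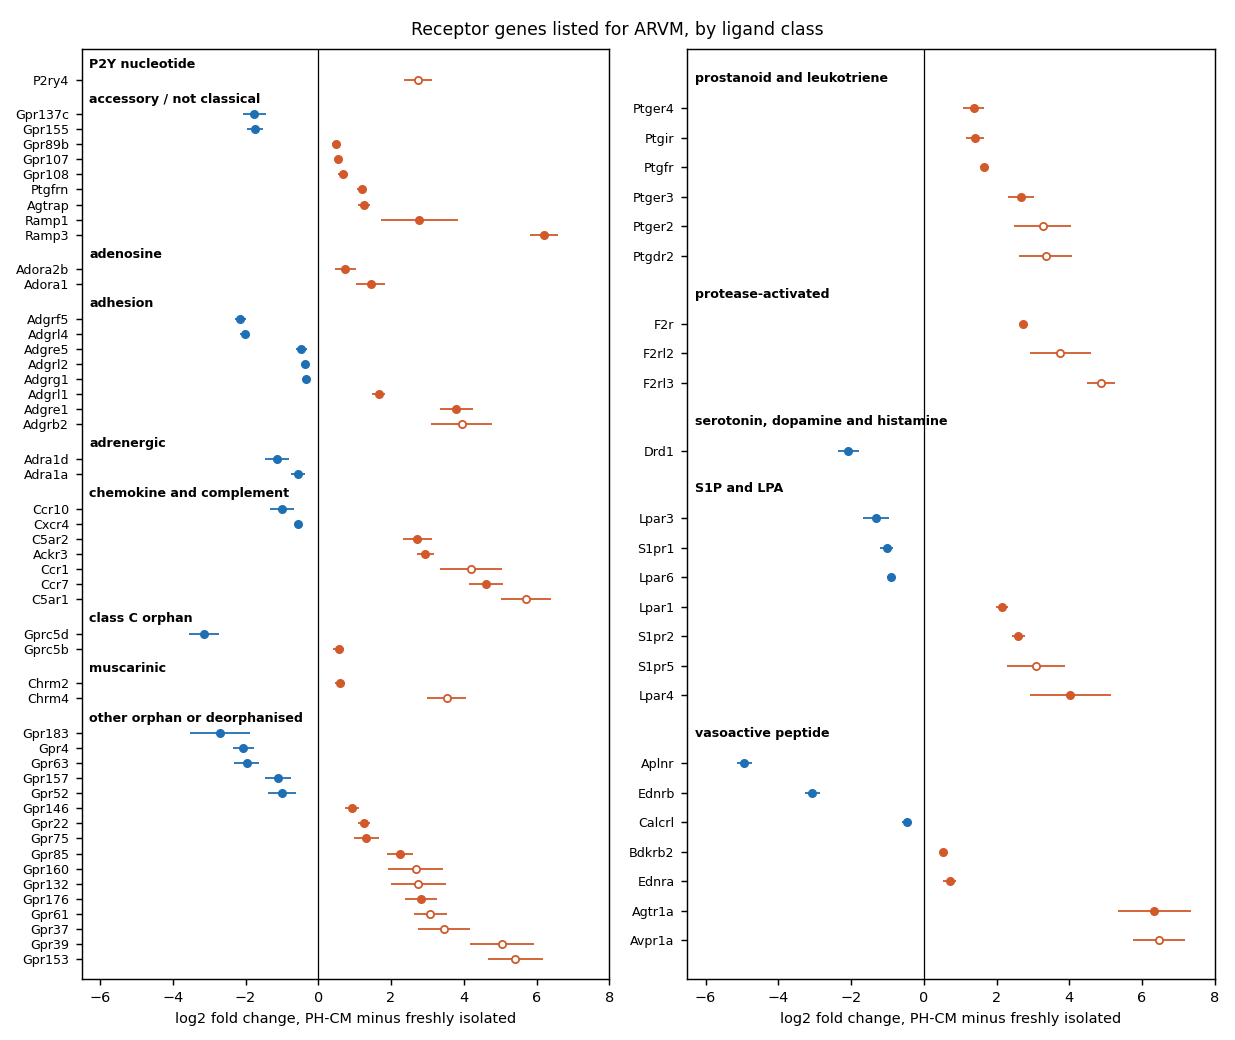
Log2 fold change (PH-CM minus freshly isolated ARVM, horizontal axis) of 73 of the 75 receptor genes listed for ARVM, grouped by ligand class, with bars for the standard error of the limma fit over 3 libraries per group. Red points were higher and blue points lower in PH-CM ARVM, and open points mark the 17 drawn genes that were at or under the floor of 15 units in freshly isolated ARVM. All 6 prostanoid and 3 protease-activated receptor genes lay right of 0, both adrenergic genes lay left of it, and the other larger classes held genes on both sides.

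Cell type markers moved along with the receptor genes, and their values are given here once for the ARVM comparison. All 8 listed cardiomyocyte markers were lower in PH-CM ARVM, and their summed level went from 1386230–1456310 to 116353–141636 normalized counts. All 8 fibroblast markers were higher (1427–1953 to 86870.3–129619), as were all 12 macrophage markers (288–411 to 3712–5560.3). Of 10 endothelial markers, 9 were lower and Emcn was higher (11105–13045 to 4587–5359.7), and of 10 smooth muscle and pericyte markers 7 were higher and 3 lower (6883–7758 to 33184–51075). No marker of these 5 lists was at 0 in a whole group. Of the lymphocyte, neural and erythroid lists, 1 of 7 (lower), 1 of 5 (higher) and 2 of 5 genes (lower, and at 0 in all PH-CM libraries) were listed. In these bulk libraries, fewer cells of a type and less RNA per cell cannot be told apart, and the part of other cell types in the receptor results was not tested.

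Receptors for vasoactive peptides held the deepest fall and some of the larger rises. Aplnr, which binds apelin, stood at 1728, 1669 and 1497 normalized counts in the freshly isolated libraries and at 43.1, 72.5 and 45.7 in the PH-CM libraries. All 3 treated libraries lay far under all 3 controls, a 30.3-fold difference of the means (log2 fold change -4.93, SE 0.21, limma adjusted p = 5.18e-07 with Benjamini-Hochberg adjustment). Ednrb, the endothelin receptor that in vessels releases nitric oxide and clears endothelin, went from 979.6, 925 and 911 to 94.5, 156 and 93.1, a log2 fold change of -3.07 (SE 0.21), with ha209 the highest of the treated libraries. The other endothelin receptor gene, Ednra, which mediates constriction, moved the other way, from 312, 367 and 239.7 to 509.7, 561 and 429.9 (0.72, SE 0.18). Endothelial markers, which were lower in 9 of 10 cases, moved with Aplnr and Ednrb.

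Agtr1a encodes the type 1 receptor of angiotensin II. Its values were 12.7, 0 and 17.6 in freshly isolated ARVM and 541, 374 and 659 in PH-CM ARVM, so that every treated library was above every control (log2 fold change 6.34, SE 1.01). The error is large, with 1 control library at 0, and reads shared with its near-identical copy Agtr1b leave the assignment to Agtr1a uncertain. Avpr1a, the vasopressin V1a receptor, was at 0, 5.36 and 0 and then at 195, 160.5 and 135. It held only 5 units over the 3 control libraries, under the floor, so its fitted log2 fold change of 6.46 depends on the pseudocount. The order of the largest rises depended on the setting. With a pseudocount of 1 Avpr1a and Agtr1a stood first, whereas with a pseudocount of 10 Ramp3 (5.66), described next, stood above Agtr1a (4.82) and Avpr1a (3.90), and in edgeR Ramp3 (6.17) and C5ar1 (6.12) stood above Agtr1a (5.69).

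Bdkrb2, the constitutive bradykinin receptor, rose by less, from 636, 665 and 614 to 971, 939.5 and 875 normalized counts (0.54, SE 0.0789). Calcrl binds calcitonin gene-related peptide or adrenomedullin depending on its partner protein. It fell from 400.4, 366 and 342 to 249, 284 and 265 (-0.47, SE 0.13), while 2 partner genes rose. Ramp3, which turns Calcrl into an adrenomedullin receptor, went from 30.1, 9.64 and 24.8 to 1566, 1289 and 1706, a 70.7-fold difference of the means (6.21, SE 0.38). Ramp1, which makes it a receptor for calcitonin gene-related peptide, went from 0, 9.64 and 22.7 to 28, 58.7 and 45.7 (2.77, SE 1.06), and its limma call was lost without ha2, ha209 or ha211 and with a pseudocount of 0.1. Ramp2 was not among the listed genes.

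**Figure D2:**
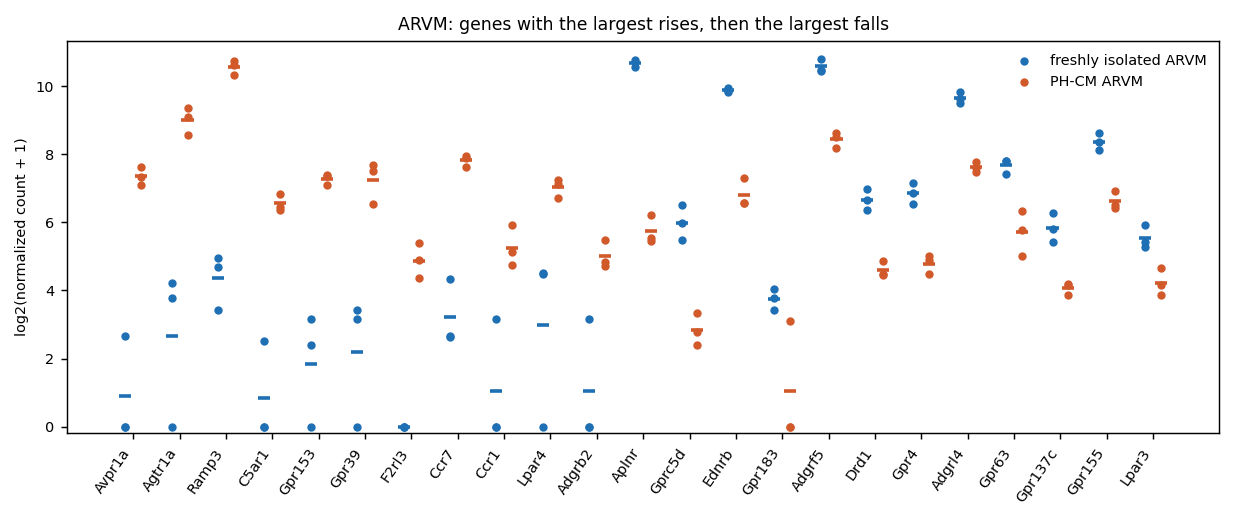
Level of 11 of the 12 receptor genes with the largest rise (left) and the 12 with the largest fall (right) in each ARVM library, as log2(normalized count + 1) on the vertical axis. Blue points are the 3 freshly isolated libraries, red points the 3 PH-CM libraries and bars their means. The groups do not overlap in any of the 23 genes, and among the rises many control libraries sit at 0.

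The ratio of 2 genes within a library does not depend on the scaling of that library, although without length correction its absolute value cannot be read as a ratio of molecules. The log2 ratio of Ednra to Ednrb was -1.65, -1.33 and -1.93 in freshly isolated libraries con4, con5 and con6, and 2.43, 1.84 and 2.21 in PH-CM libraries ha2, ha209 and ha211. That of S1pr2 to S1pr1 was -1.70, -0.70 and -1.16, then 2.67, 1.94 and 2.71. Both ratios were thus higher in every treated library than in every control. Each pair sets a gene that was higher over a gene that was lower, without overlap of the groups. The separation of the ratios was therefore fixed by these directions and is no further result. Ramp3 to Calcrl went from -3.74, -5.25 and -3.79 to 2.65, 2.18 and 2.69 and was likewise higher in all 3 treated libraries. The ratio of Lpar1 to Lpar6 rose from -3.22, -3.09 and -3.15 to 0.14, -0.16 and -0.21. Where a ratio crosses 0 depends on the lengths of the genes and is not read here.

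**Figure D3:**
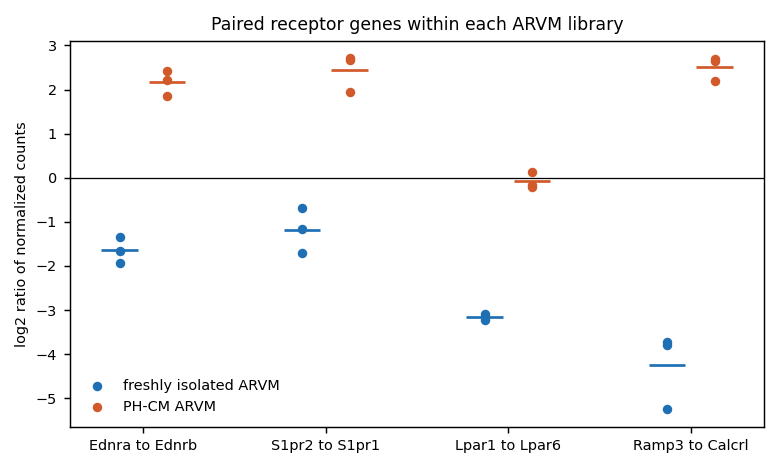
Log2 ratio of the normalized counts of paired receptor genes within each ARVM library (vertical axis), with 0 meaning equal counts. Blue points are freshly isolated libraries, red points PH-CM libraries and bars their means. In every pair drawn, Lpar1 to Lpar6 included, all 3 treated points lie above all 3 control points. This was fixed by the directions of the paired genes, and the position of 0 depends on gene lengths.

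Of the receptors for the autonomic transmitters, 4 of the subtypes matching the rule were listed. Adra1a and Adra1d, the alpha1 receptors through which noradrenaline acts on Gq in myocytes and vessels, were both lower in PH-CM ARVM. Adra1d went from 128, 172 and 173 to 49.9, 112 and 62.6 normalized counts (-1.14, SE 0.33). Adra1a went from 165, 150.0 and 200.4 to 109, 131 and 108 (-0.55, SE 0.20), a small difference whose limma call was lost without con6, ha2 or ha211, with adjusted p = 0.0844, 0.0718 and 0.0689. No beta adrenergic receptor gene was listed.

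Both listed muscarinic receptor genes were higher. Chrm2, the Gi-coupled M2 receptor that slows the heart, went from 569.7, 418 and 592 to 851, 756 and 752 (0.59, SE 0.14). Chrm4, another Gi-coupled subtype, was at 0, 0 and 0 in the controls and at 18.9, 13.8 and 4.23 in PH-CM ARVM, which against the floor is at least 2.08-fold higher. The Chrm2 values were high in every library, whereas those of Chrm4 rest on few reads in both groups.

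Both listed adenosine receptor genes were higher too. Adora1, which is Gi-coupled and slows conduction, went from 34.8, 56.8 and 117 to 172, 169 and 163 (1.44, SE 0.41), with con6 well above the other 2 controls. Adora2b, which responds to high adenosine and is Gs-coupled, went from 20.6, 20.4 and 21.7 to 36.3, 39.7 and 31.3 (0.74, SE 0.28). The Adora2b call did not hold without con5, ha2 or ha209 (limma adjusted p = 0.0567, 0.0601 and 0.0675), nor in edgeR (adjusted p = 0.0607) or DESeq2 (0.124). The dopamine receptor gene Drd1 fell from 80.7, 99.6 and 126 to 28, 20.7 and 21.2 (-2.08, SE 0.29). P2ry4, a receptor for nucleotides, was at 0 in the controls and at 8.32, 4.31 and 5.08 in PH-CM ARVM, and no fold is given since its mean there is close to the floor.

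The protease-activated receptors carry their own ligand, which thrombin or other proteases uncover by cutting the receptor. All 3 listed genes of this class were higher in PH-CM ARVM. F2r, the main thrombin receptor, went from 198, 243 and 220.0 to 1418, 1359.7 and 1638 normalized counts, a 6.68-fold difference of the means (2.73, SE 0.12, limma adjusted p = 5.39e-07 with Benjamini-Hochberg adjustment). F2rl2, which in some cells acts as a cofactor for thrombin at other receptors of the class, was at 7.91, 7.50 and 0 and then at 60.5, 38.8 and 75.3, with 12 units over the controls, under the floor. F2rl3, a further thrombin receptor, was at 0 in every control library and at 28.7, 40.5 and 19.5 in PH-CM ARVM, at least 5.0-fold higher against the floor. F2r was thus the 1 gene of the class that was well above the floor in both groups, and its 3 treated libraries lay within a narrow range.

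F2r and F2rl2 lie near each other on rat chromosome 2, and C5ar2, a complement receptor gene described further on, lies on chromosome 1. Their upstream sequences are shown because these were the only 3 receptor promoters with the AP-1 letters TGACTCA, in either orientation and with no overlap with another motif searched, within 250 bases before an annotated start. The sequences are from RefSeq (GRCr8), each written on the gene's own strand from 5′ to 3′, for F2r at chr2:28620580-28620829 (minus strand), for F2rl2 at chr2:28706516-28706765 (plus strand) and for C5ar2 at chr1:86070554-86070803 (minus strand). Capitals mark TGACTCA or its reverse complement TGAGTCA, which begin 194 bases before the start of F2r, 129 before that of F2rl2 and 120 before that of C5ar2.
F2r: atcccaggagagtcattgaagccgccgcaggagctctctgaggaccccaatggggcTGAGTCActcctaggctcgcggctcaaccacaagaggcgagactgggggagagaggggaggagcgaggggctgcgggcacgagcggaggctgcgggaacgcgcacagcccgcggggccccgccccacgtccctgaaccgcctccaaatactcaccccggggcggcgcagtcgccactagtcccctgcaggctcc
F2rl2: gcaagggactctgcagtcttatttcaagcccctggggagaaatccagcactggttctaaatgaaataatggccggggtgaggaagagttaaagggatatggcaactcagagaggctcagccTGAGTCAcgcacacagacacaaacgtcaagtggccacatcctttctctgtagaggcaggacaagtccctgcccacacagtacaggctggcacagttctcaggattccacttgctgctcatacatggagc
C5ar2: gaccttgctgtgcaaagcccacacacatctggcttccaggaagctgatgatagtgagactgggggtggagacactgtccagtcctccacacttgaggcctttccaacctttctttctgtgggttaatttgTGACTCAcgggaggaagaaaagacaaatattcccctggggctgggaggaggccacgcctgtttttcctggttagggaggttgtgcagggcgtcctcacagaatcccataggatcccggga
All 3 genes were higher in PH-CM ARVM.

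A promoter window was found in RefSeq for 63 of the 75 members, 42 that were higher (43 windows) and 21 that were lower. The AP-1 letters stood in 3 of the 43 windows of higher genes (6.98%), in 0 of the 21 windows of lower genes and in 1354 of all 33469 rat windows (4.05%). Median GC content was 59.2% in windows of higher genes, 53.2% in those of lower genes and 51.2% in all windows, with a median of 9, 5 and 5 CG pairs. The GC box letters GGGCGG were found in 20 windows of higher genes (46.5%), 6 of lower genes (28.6%) and 30.5% of all windows. The TEAD letters GGAATG were in 2 windows of higher genes (4.65%), 2 of lower genes (9.52%) and 12.1% of all, and the GATA letters AGATAA in 3 (6.98%), 0 and 10.3%. The E-box CACGTG was in 1 window of each group (2.33% and 4.76%) against 5.59% of all, and TATAAA in 5 (11.6%) and 3 (14.3%) against 12.9%. These are descriptions of letters in a window, read on both strands, and no binding was measured.

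All 6 listed prostanoid receptor genes were higher in PH-CM ARVM, with log2 fold changes from 1.37 to 3.35. Ptgfr, the Gq-coupled receptor of prostaglandin F2 alpha, went from 935, 860.1 and 768 to 3015, 2442 and 2571 normalized counts, a 3.13-fold difference of the means (1.65, SE 0.10). Among the receptors of prostaglandin E2, the Gs-coupled Ptger4 went from 41.1, 22.5 and 30.0 to 86.2, 75.9 and 77.9 (1.37, SE 0.30), and the Gi-coupled Ptger3 from 20.6, 10.7 and 21.7 to 123, 84.6 and 140.5 (2.68, SE 0.36). The groups lay clearly apart for these 3 genes. Ptgir, the prostacyclin receptor, rose from 64.9, 60.0 and 49.6 to 131, 201 and 146 (1.42, SE 0.25). Ptger2 and Ptgdr2, receptors for prostaglandins E2 and D2, each had 5 units over the controls and means of 18.1 ± 7.79 and 18.3 ± 5.77 (SD, n = 3) in PH-CM ARVM.

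Receptors for sphingosine 1-phosphate and lysophosphatidic acid moved in both directions, 4 higher and 3 lower. S1pr1, the Gi-coupled receptor known from endothelium and lymphocyte egress, fell from 562, 453 and 472 to 210.2, 308 and 219 (-1.02, SE 0.18). S1pr2, which couples to G12 and G13, rose from 173, 279.6 and 210.7 to 1336, 1180.2 and 1434 (2.59, SE 0.18, limma adjusted p = 6.01e-06 with Benjamini-Hochberg adjustment). S1pr5 was at 0, 0 and 5.17 and then at 20.4, 21.6 and 6.77, with its controls under the floor. The 2 well-measured subtypes thus moved in opposite directions, and the endothelial marker sum fell along with S1pr1.

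For lysophosphatidic acid, Lpar1, a widely expressed receptor known from fibroblasts, rose from 96.5, 94.3 and 82.6 to 464, 383 and 384 (2.16, SE 0.16). Lpar4, a further receptor of this lipid, was at 0, 21.4 and 21.7 and then at 151, 104 and 137 (4.03, SE 1.12). Its size rests on con4, the control library at 0, without which the log2 fold change was 2.53. Lpar3 fell from 38, 41.8 and 59.9 to 13.6, 24.2 and 16.9 (-1.32, SE 0.35). Lpar6 fell from 902, 802 and 734 to 421, 429 and 443 (-0.91, SE 0.10), with the 3 treated libraries within a narrow range. Fibroblast markers, all 8 higher, moved with Lpar1.

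Of the 7 chemokine and complement receptor genes, 5 were higher and 2 lower. Cxcr4, the signalling receptor of CXCL12, fell from 2311, 2239 and 2081 to 1305, 1547 and 1628 (-0.57, SE 0.0918). Ackr3, which takes up the same ligand without G protein signalling, rose from 208.9, 155 and 191 to 1628, 995 and 1776, a 7.92-fold difference of the means (2.95, SE 0.22). The 2 receptors of CXCL12 thus moved in opposite directions in all 3 libraries of each group, and ha209 was the lowest treated library for Ackr3. Ccr10, a receptor of epithelial chemokines, went from 42.7, 55.7 and 73.3 to 35.5, 25.9 and 22.9 (-0.99, SE 0.33), and its limma call was lost without con6 or ha211, with adjusted p = 0.0570 and 0.0583.

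C5ar1, C5ar2, Ccr7 and Ccr1, all known from leukocytes, had low values in freshly isolated ARVM. C5ar1, the main receptor of the complement fragment C5a, was at 4.75, 0 and 0 and then at 87, 82 and 113. C5ar2, a further C5a receptor with little G protein coupling, was at 14.2, 6.43 and 6.20 and then at 69.6, 48.3 and 66.9 (2.73, SE 0.40). Ccr7, which guides cells to lymph nodes, rose from 19, 5.36 and 5.17 to 246, 197 and 235, a 23-fold difference of the means (4.62, SE 0.48). Ccr1, a receptor of inflammatory chemokines, was at 7.91, 0 and 0 and then at 25.7, 33.6 and 59.2. All 4 were higher in every PH-CM library, and they moved with the macrophage markers, of which 12 of 12 were higher.

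Adhesion receptors have long extracellular domains and bind matrix or neighbouring cells. Of 8 listed genes, 5 were lower and 3 higher in PH-CM ARVM. Adgrf5, known from lung and endothelium, fell from 1769, 1428 and 1398 to 287, 393 and 361 (-2.14, SE 0.14), and Adgrl4, an endothelial receptor, from 899, 728 and 788 to 194, 219 and 179 (-2.02, SE 0.13). These differences of the means, 4.42-fold and 4.08-fold, moved with the endothelial markers. Adgrl2, Adgrg1 and Adgre5 differed by less, with log2 fold changes of -0.38, -0.35 and -0.47, and the call of Adgre5 was lost without con5 (limma adjusted p = 0.0549) or ha2.

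Adgre1, the F4/80 antigen of macrophages, rose from 44.3, 21.4 and 78.5 to 448, 556 and 865 (3.80, SE 0.46), a wide range in both groups. Adgre1 is itself 1 of the 12 macrophage markers. Adgrl1, a latrophilin, rose from 162 ± 39.8 to 503 ± 41.7 normalized counts (SD, n = 3 each, log2 fold change 1.66). Adgrb2, a brain adhesion receptor, was at 7.91, 0 and 0 and then at 27.2, 25 and 43.2, with 5 units over the controls.

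The 18 numbered receptors outside the named classes were 13 higher and 5 lower, and their median log2 fold change was 1.92. Gpr4, a proton sensor known from endothelium, fell from 141, 91 and 116 to 21.2, 28.5 and 31.3 (-2.06, SE 0.29). Gpr183, a receptor for oxysterols known from lymphocytes, was at 12.7, 9.64 and 15.5 and then at 0, 0 and 7.62, the only member under the floor in PH-CM ARVM. Its limma call was lost without ha2 or ha209, with adjusted p = 0.0590 and 0.0546, and in DESeq2 (0.118). The listed lymphocyte marker Cd79b, 1 of a list of 7, was lower as well (10.7 ± 4.61 to 1.41 ± 2.44, SD, n = 3).

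Gpr22, an orphan receptor known from heart, rose from 423 ± 81.6 to 1014 ± 163 normalized counts (SD, n = 3 each, log2 fold change 1.26), against the fall of all 8 cardiomyocyte markers. Gpr176 rose from 62.1 ± 36.5 to 399 ± 90.4 (2.82). Gpr39, which responds to zinc, was at 7.91, 9.64 and 0 and then at 203, 91.5 and 182. Gpr153 was at 7.91, 4.28 and 0 and then at 163, 135 and 166. For Gpr39 and Gpr153 the controls were under the floor, so that their rise is clear but its size is not. Gpr61 was at 0 in all controls and at least 1.39-fold higher in PH-CM ARVM.

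Gpr63 fell from 223, 170.3 and 223 to 80.2, 53.5 and 31.3 (-1.97, SE 0.35), with ha2 the highest treated library. Gpr75, for which lipid and chemokine ligands have been described, rose from 14.2, 17.1 and 9.30 to 31.8, 31.9 and 39.8 (1.32, SE 0.34). Of the class C orphans, Gprc5d fell from 90.2, 62.1 and 43.4 to 9.07, 4.31 and 5.92 (-3.14, SE 0.41) and Gprc5b rose from 259 ± 27 to 383 ± 57.7 (SD, n = 3, log2 fold change 0.56). Gpr85, Gpr37, Gpr132, Gpr160 and Gpr146 were higher by 2.25, 3.46, 2.75, 2.68 and 0.92, of which Gpr37, Gpr132 and Gpr160 had controls under the floor. Gpr132 and Gpr160 were not called in DESeq2 (adjusted p = 0.0632 and 0.0768). Gpr157 and Gpr52 were lower by log2 fold changes of -1.12 and -0.99. Both of these calls were lost when 1 library was left out, Gpr157 without ha211 and Gpr52 without con5, con6, ha2 or ha209.

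Of the 9 matches that are no classical receptors, 7 were higher and 2 lower. Gpr137c and Gpr155, the latter a lysosomal membrane protein, fell from 76, 41.8 and 54.8 to 13.6, 17.3 and 16.9 (-1.75, SE 0.33) and from 391, 275 and 329 to 121, 90.6 and 84.6 (-1.74, SE 0.21). Agtrap, which binds the type 1 angiotensin receptor and promotes its uptake, rose from 276 ± 61.1 to 652 ± 26.1 (SD, n = 3, log2 fold change 1.26), in the same direction as Agtr1a. Ptgfrn, an immunoglobulin-domain protein that inhibits ligand binding by the prostaglandin F2 alpha receptor, rose from 556 ± 71.2 to 1272 ± 146 (1.19), in the same direction as Ptgfr. Gpr89b, Gpr107 and Gpr108, which reside in the Golgi or other internal membranes, were higher by 0.48 to 0.68 on the log2 scale.

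The share of each class that was listed can be set against the rat annotation, in which 227 protein-coding symbols match the rule, 75 of them listed. Listed were 7 of 11 lysophospholipid receptors, 6 of 11 prostanoid and leukotriene receptors, 3 of 4 protease-activated, 7 of 15 vasoactive peptide, 7 of 24 chemokine and complement, 8 of 28 adhesion and 2 of 9 adrenergic receptors. Of 23 receptors for serotonin, dopamine and histamine, only Drd1 was listed. Whether the other symbols were not expressed or did not differ was not analysed here. Being listed reflects the authors' selection, and the share of all rat protein-coding genes that were listed was not computed. The shares are therefore not read as enrichment of a class, and several classes are small.

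The second comparison asked how receptor genes of PH Cfib differed from those of CO Cfib. All 18 listed members passed limma at an adjusted p under 0.05, 8 higher and 10 lower in PH Cfib. Of all listed genes, 97.5% passed, 58.2% higher and 39.4% lower, and the groups did not overlap in 100% of them. Log2 fold changes (PH minus CO) had a median of -0.41, against 0.33 for all listed genes. Of the members, 44.4% were higher, against 59.7% of listed genes. A change of at least 1 was seen in 4 members upward and 6 downward, 55.6% against 34.1% of listed genes. Because the listed genes had been selected, these comparisons are not read as a trait of receptors. Rescaling by the median of ratios shifted the log2 fold changes of all Cfib genes by a median of -0.27, and relative to that shift only CCR10 lost its call. S1PR2 then stood at 0.48 and GPR89 at -0.45.

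**Figure D4:**
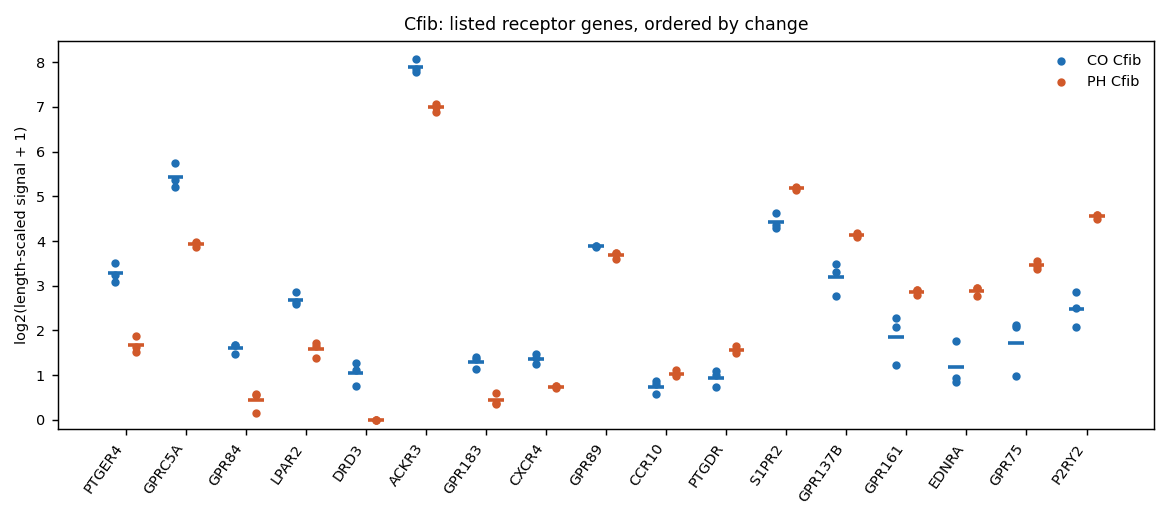
Level of 17 of the 18 receptor genes listed for Cfib in each library, as log2(length-scaled signal + 1) on the vertical axis, ordered from the largest fall on the left to the largest rise on the right. Blue points are the 3 CO libraries, red points the 3 PH libraries and bars their means. ACKR3 had the highest level in both groups, and PH libraries lay closer together than CO libraries in most genes.

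The largest rise in PH Cfib was that of P2RY2, a Gq-coupled receptor for ATP and UTP. Its signal was 4.64, 6.25 and 3.25 in CO Cfib 1, 2 and 3 and 22.9, 21.6 and 23.1 in PH Cfib 1, 2 and 3, a 4.78-fold difference of the means (2.08, SE 0.19, limma adjusted p = 0.000109 with Benjamini-Hochberg adjustment). EDNRA, the endothelin receptor that mediates constriction, went from 0.919, 2.41 and 0.801 to 6.75, 6.69 and 5.86 (1.71, SE 0.24), with CO 2 the highest of the controls. All PH libraries lay above all CO libraries in both genes. S1PR2, coupled to G12 and G13, went from 23.8, 18.6 and 19.4 to 36.2, 34.4 and 35.3 (0.76, SE 0.10).

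GPR75 and GPR161 each had a CO 3 value well under those of CO 1 and 2. GPR75 stood at 3.22, 3.32 and 0.967 and then at 9.43, 10.7 and 9.94 (1.74, SE 0.30), and GPR161, a ciliary receptor that holds back Hedgehog signalling, at 3.22, 3.85 and 1.35 and then at 6.46, 6.46 and 5.97 (1.0, SE 0.26). GPR137B, a lysosomal membrane protein and no classical receptor, rose from 8.97, 10.2 and 5.78 to 16.5, 17.1 and 16.2 (0.95, SE 0.18). Low signals were seen for PTGDR, the Gs-coupled receptor of prostaglandin D2, and for CCR10. PTGDR rose from 1.13, 1.01 and 0.663 to 1.94, 2.13 and 1.82 (0.62, SE 0.11). CCR10 went from 0.732, 0.817 and 0.487 to 1.03, 1.18 and 0.960 (0.29, SE 0.10), and its limma call was lost on rescaling (log2 fold change 0.16, adjusted p = 0.170) and without CO 3 (0.21, 0.0513), PH 1 (0.0555) or PH 2 (0.0838).

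Among the genes that were lower in PH Cfib was PTGER4, the Gs-coupled receptor of prostaglandin E2. Its signal went from 10.4, 7.54 and 8.52 to 2.09, 2.64 and 1.87, a 4.0-fold difference of the means (-1.61, SE 0.14, limma adjusted p = 9.85e-05 with Benjamini-Hochberg adjustment). GPRC5A, a class C orphan known to respond to retinoic acid, went from 36.3, 52.4 and 40.4 to 13.6, 14.7 and 14.6 (-1.51, SE 0.13). The highest library was CO 1 for PTGER4 and CO 2 for GPRC5A, and the PH libraries lay within a narrow range.

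GPR84, a receptor for medium-chain fatty acids known from myeloid cells, fell from 2.17, 1.76 and 2.21 to 0.115, 0.481 and 0.495 (-1.17, SE 0.14), and GPR183, the oxysterol receptor, from 1.64, 1.55 and 1.21 to 0.282, 0.307 and 0.517 (-0.85, SE 0.11). LPAR2, a receptor of lysophosphatidic acid, fell from 5.22, 4.98 and 6.24 to 1.60, 2.15 and 2.30 (-1.11, SE 0.13). DRD3, a dopamine receptor, was at 1.16, 1.43 and 0.678 in CO Cfib and is listed at 0 in all PH libraries, and no fold is given. GPR84, GPR183 and DRD3 had means under 3 in both groups and rest on low signal. At such signals the pseudocount sets the size: with 0.1 in place of 1, log2 fold changes were -2.35 for GPR84, -1.76 for GPR183 and -1.12 for CXCR4, and the log2 fold change of 6 of the 18 members was over 1.5 times larger. With a pseudocount of 10, that of 15 of the 18 was over 1.5 times smaller, and every call held in both settings. Of the 12 macrophage markers, 7 were listed for Cfib, 6 higher and 1 lower in PH Cfib (summed signal 12.9–15.7 to 20.0–21.8), with C1QA and C1QB at 0 in CO Cfib, and their part in these results was not tested. Further listed markers were 2 of 8 for fibroblasts (both higher), 6 of 10 for smooth muscle and pericytes (5 higher, 1 lower) and 1 of 10 for endothelium (lower), while none was listed for cardiomyocytes.

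The receptors of CXCL12 were both lower in PH Cfib. ACKR3 went from 269, 229 and 218 to 117, 134 and 128 (-0.91, SE 0.10), and on this length-scaled signal it had the highest level of the 18 members in both groups. CXCR4 went from 1.63, 1.37 and 1.78 to 0.699, 0.691 and 0.635 (-0.63, SE 0.0841), a far lower level. CXCL12 itself, a chemokine that fibroblasts secrete, was higher in PH Cfib (35.2 ± 3.43 to 64.3 ± 0.316, SD, n = 3, chosen after its value was seen). GPR89, a Golgi membrane protein and no classical receptor, differed least, from 13.9, 13.5 and 13.9 to 11.2, 12.3 and 12.4 (-0.19, SE 0.0690), and its limma call was lost without CO 1 (adjusted p = 0.0615), PH 1 (0.126), PH 2 (0.0721) or PH 3 (0.0653).

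Genes listed in both tables were compared by symbol. These were 9 genes, 50% of the Cfib members and 12% of the ARVM members. The 2 comparisons come from different species, cells and designs and were scaled separately, so their directions were set side by side without a test. The direction was the same in 5 genes and opposite in 4, a share of 55.6%, against 55.7% (656 of 1178) among all genes listed in both tables. The share among receptors was thus near that of listed genes in general.

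EDNRA, S1PR2 and GPR75 were higher in both comparisons, with log2 fold changes of 1.71 and 0.72, 0.76 and 2.59, and 1.74 and 1.32 (Cfib first, ARVM second). CXCR4 (-0.63 and -0.57) and GPR183 (-0.85 and -2.71) were lower in both. ACKR3 (-0.91 and 2.95) and PTGER4 (-1.61 and 1.37) were lower in PH Cfib and higher in PH-CM ARVM. CCR10 (0.29 and -0.99) had the reverse order, on a call that rescaling removed in Cfib.

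**Figure D5:**
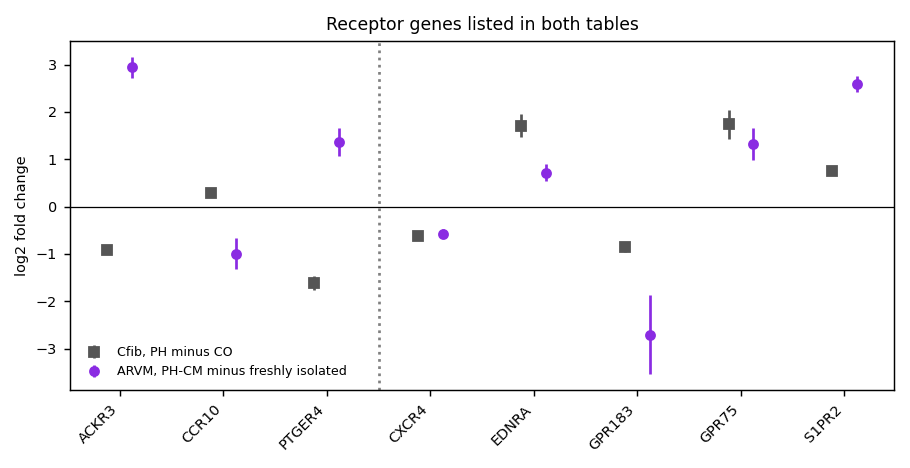
Log2 fold change (vertical axis) of 8 of the 9 receptor genes listed in both tables, with bars for the standard error of each limma fit over 3 libraries per group. Grey squares are PH minus CO Cfib and purple circles PH-CM minus freshly isolated ARVM. Left of the dotted line are 3 genes whose 2 changes lie on opposite sides of 0, right of it the 5 genes whose changes lie on the same side.

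At least 2 receptor genes were missed because the bovine table uses older symbols. ELTD1 and LPHN1 are earlier names of ADGRL4 and ADGRL1 and were noticed after their values were seen. ELTD1 was higher in PH Cfib (2.18 ± 0.444 to 9.61 ± 0.569, SD, n = 3, log2 fold change 1.75), whereas Adgrl4 was lower in PH-CM ARVM. LPHN1 was higher (0.258 ± 0.148 to 2.18 ± 0.313, log2 fold change 1.34), as was Adgrl1 in PH-CM ARVM. They are not counted among the members.

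Ligands and the enzymes that make them were followed with a list of 85 genes. In ARVM 42 were listed, 30 called higher and 12 lower in PH-CM, against 53.9% higher and 43.7% lower among all listed genes. Their median log2 difference was 1.60, against 0.37. Of the 42, 3 were at 0 in all controls, and such genes are listed mainly when they are high in PH-CM ARVM. The comparison with listed genes is therefore not read as a trait of ligands. The chemokine gene Ccl12 went from 6.26 ± 5.43 to 957 ± 418 normalized counts (SD, n = 3), the chemokine gene Ccl22 from 1933 ± 157 to 19.5 ± 8.21, and Ccl6, which was at 0 in the controls, reached 79.1 ± 21.3. Ligands of the receptors with large changes were read in addition, after their values were seen. Apln, which encodes the ligand of Aplnr, was higher (573 ± 15.3 to 1952 ± 441, log2 fold change 1.74) while Aplnr was lower. Edn1, which encodes endothelin 1, was higher (172 ± 40.0 to 355 ± 95.1, 1.03). Adm, which encodes adrenomedullin, was higher (591 ± 20.3 to 1404 ± 183, 1.24), as was Ramp3. Ptges, a prostaglandin E synthase, was lower (267 ± 24 to 5.21 ± 6.05) while the 3 receptors of prostaglandin E2 were higher, Ptger2 from controls under the floor. Other prostanoid enzyme genes of the list were higher, among them Ptgs1 (67.2 ± 15.5 to 462 ± 82.9), Ptgs2 (74.9 ± 13.6 to 181 ± 55.3) and Ptgds (189 ± 28.5 to 561 ± 21.3). Ptgis, the prostacyclin synthase, was higher as well (201 ± 50.1 to 1269 ± 126), together with Ptgir.

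In Cfib 10 of the 85 were listed, 7 called higher and 3 lower, with a median of 0.78, against 58.2% higher, 39.4% lower and a median of 0.33 among all listed genes. With 2 of the 10 at 0 in all CO libraries and the genes selected, this is not read as a trait of ligands either. CXCL13 went from 0.0162 ± 0.0280 to 12.7 ± 0.392 (SD, n = 3), and CCL3 and CCL4, both listed at 0 in CO Cfib, reached 9.46 ± 3.64 and 6.67 ± 1.31. Other chemokine genes were lower in PH Cfib, CXCL2 (1291 ± 401 to 224 ± 45.3, log2 fold change -2.50) and CXCL16 (382 ± 72.2 to 158 ± 19.2, -1.26).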

How the data were processed

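RNA was sequenced after ribosomal depletion (HiSeq4000). Per the submitters' notes and methods, the authors used HISAT2 and StringTie with bosTau8 for calf and rn6 for rat libraries (versions not given in the sources used here), normalized counts with DESeq2 and kept genes with a value above 1 in a condition and a p-value under 0.05. The deposited ARVM signal is a read count divided by a library factor (100% of values were whole within 0.01 units), and the deposited Cfib signal is scaled by gene length, its exact unit not being stated. For each table, limma 3.58.1 in R 4.3.3 was fitted to log2(signal + 1) of all listed genes, with a mean-variance trend, and Benjamini-Hochberg adjusted p-values under 0.05 were called. On recovered counts, edgeR 4.0.16 and DESeq2 1.42.0 were alternatives. Other alternatives changed the pseudocount, filter, scaling, trend, fold minimum and libraries. No column of sample values was left unused (0). Rat promoters were from RefSeq GRCr8, of another build than the reads, so positions are given for promoter windows only.

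The members, role classes, marker and companion lists were chosen with earlier results of these data known. The rule for naming took all Cfib members and those in both tables, with the 12 largest ARVM rises and 12 largest falls (where the higher group averaged 10 or more). It also took all listed subtypes of the main families and up to 3 genes of each other list. Further ligand genes were named outside this rule. A few members that enter the counts are not reported here by name or drawn. Fold bounds and floors cover counting error only. In a simulation with 200 of 2115 genes changed by a log2 fold of 2, limma recovered 197 at the Cfib design (7 other calls). With 200 of 7052 changed at the ARVM design, limma recovered 198 (6 other calls), edgeR 198 (8) and DESeq2 194 (11). Changed genes were drawn only from those above a minimum mean, so recovery of lower genes was not simulated. ARVM counts were drawn in single units with the same dispersion for every gene. The deposited tables are also unlike the simulation because their genes had been selected and limma called 97.5% in Cfib and 97.6% in ARVM. Recovery and other calls in tables selected in that way were not tested.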

Additional observations from a re-analysis of the deposited data

How the results depend on the processing

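No member reversed its direction under any alternative run. The groups did not overlap in any listed gene, so a changed pseudocount, filter, trend or set of libraries could not reverse one. Only rescaling and the count models, edgeR and DESeq2, could have done so. Over all members and 13 settings per table (the fold minimum aside), 936 of 967 values in ARVM and 216 of 231 in Cfib kept both direction and call. This share was not computed for all listed genes and is not read as particular to receptors. With 1 library left out, 6452 to 6695 of all 7052 listed genes were called in ARVM and 1910 to 2052 of 2115 in Cfib. A minimum log2 fold change of 1 left 4 higher and 6 lower members in Cfib, and 15 lower members in ARVM (42 higher). Averaging the PH Cfib libraries to 1 sample, which was chosen after seeing the data, left 3 higher (9 lower) in Cfib, and 1038 of all 2115 listed genes called against 2063. That fit takes the lone sample to vary like the CO libraries and has fewer samples, so lost calls there do not mean smaller differences. Leaving out 1 library at a time gave 7 to 8 higher and 9 to 10 lower members in Cfib, and 48 to 51 higher and 20 to 24 lower members in ARVM. On recovered counts edgeR called 50 higher and 23 lower and DESeq2 48 and 22. With a mean of at least 1, DRD3, GPR183 and CCR10 were not tested in Cfib, and 44 higher and 22 lower members remained in ARVM at a mean of at least 10. The count of shared genes with the same direction stayed at 5 on rescaling.

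With the library number as a replicate block, 8 members were called higher and 9 lower in Cfib, and GPR89 was lost (limma adjusted p = 0.0789). Deviations of equally numbered CO and PH libraries correlated at 0.258, 0.0312 and 0.259, and those of unequally numbered ones at -0.245 to 0.102. The numbers were not taken as pairs in the main fit, and whether equal numbers share a batch was not tested. No paired analysis was possible for ARVM because the groups share no library number. Depth limits the 18 members at or under the floor in freshly isolated ARVM, whose rise has no well-measured size. For Cfib the depth is unknown.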

Other observations

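Receptors outside the symbol rule were read with a list of 133 genes of other G protein-coupled families. In ARVM 23 were listed, 17 called higher and 6 lower in PH-CM, and the median log2 difference was 1.32 (all listed genes 53.9% higher, 43.7% lower, median 0.37). Mrgprf went from 7.33 ± 6.80 to 95.6 ± 27.3 normalized counts (SD, n = 3), Cmklr1, the chemerin receptor, from 9.22 ± 8.0 to 95.4 ± 49.5, and Ptafr, the receptor of platelet-activating factor, from 10.4 ± 10.9 to 84.3 ± 9.64. In Cfib 11 were listed, 9 called higher and 2 lower in PH, with a median of 1.34 (all listed genes 58.2% higher, 39.4% lower, median 0.33). These 9 include ELTD1 and LPHN1, which are adhesion receptors under older symbols and not of another family, and the median is the value of LPHN1. Because listed genes had been selected, as stated for the ligands, neither median is read as a trait of these receptors. CMKLR1 rose from 0.321 ± 0.138 to 7.71 ± 0.129 (SD, n = 3), the glucagon receptor gene GCGR from 0.346 ± 0.107 to 5.54 ± 1.25, and FZD4, a Wnt receptor, from 8.79 ± 4.36 to 35.8 ± 2.74.

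Proteins that switch off, sort or regulate these receptors were read with a list of 28 genes. In ARVM 12 were listed, 7 called higher and 5 lower, against 53.9% and 43.7% of all listed genes. Gpsm2, a regulator of Gi proteins, rose from 13.8 ± 6.38 to 113 ± 8.21 (SD, n = 3) and Slc9a3r1, a scaffold of membrane receptors, by 2.43 on the log2 scale, while the receptor kinase gene Adrbk2 fell from 113 ± 12 to 48.5 ± 32.6. In Cfib 7 were listed, 3 called higher and 4 lower, against 58.2% and 39.4%. None of the 3 was still called higher once median-of-ratios factors were applied. RTP4, which helps receptors to the cell surface, fell from 51.9 ± 13.5 to 18.1 ± 2.32.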
